A study of Mus musculus with 4 samples.

Results

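The genes described here are the enzymes and transporters of glycolysis and the genes of the hypoxia response, measured in J558, a plasmacytoma (a tumour of antibody-secreting plasma cells) from BALB/c mice. The list named 38 genes, and a gene was included where the platform annotation gave its symbol alone to a probe set. That left 36 of the 18194 genes so named on the array. Of these 36, 23 belonged to glycolysis and lactate handling, and 13 were the oxygen sensors and other targets of the hypoxia-inducible factor (HIF). No probe set was annotated to Gpi1 or Eno1 alone, and probe sets with several symbols were not used, so neither gene was analysed here. Each gene was read from 1 probe set, the one with the highest mean of log2(signal + 16) over the arrays, where the signal is the deposited MAS5 intensity and 16 is a pseudocount that damps the noise of dim probe sets.

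All 4 samples were neomycin-resistant clones picked under G418 after co-transfection with a Neo vector. In 2 clones the silencing plasmid pSilencer carried a sequence against activation-induced cytidine deaminase (AID), the enzyme that mutates immunoglobulin genes, and in 2 control clones the plasmid was empty. The labels arranged them as 2 pairs, each of 1 control and 1 AID-silenced clone, and each clone was read on a single Affymetrix mouse expression array. Signals below are given for pair 1 and then pair 2, and differences are AID-silenced minus control in log2(signal + 16). A difference within a pair is therefore a difference between 2 single clones, and any clonal difference is part of it. The precision of every value is limited by the number of arrays, 2 in each group. Since these were bulk RNA samples, fewer cells with a transcript and less of it per cell cannot be told apart.

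All arrays had the same trimmed mean signal, their medians lay between 52.7 and 54.9, and the highest signals were between 40603.5 and 53070.5. The 9 measured plasma cell markers, among them Igha, Jchain, Sdc1 and Xbp1, were above the brightest bacterial control probe set on every array, which is the check of the labelled cell type. The same held for 1 of 5 T cell, 2 of 6 myeloid, 2 of 6 fibroblast and endothelial and 0 of 2 red cell markers. Those bacterial probe sets, for which no transcript is present, were the 27 for dap, lys, phe, thr and trpn. Affymetrix's other control probe sets were not part of them. They reached 27.3 to 41.9 and serve below as the level of background. The ratio of the 3′ to the 5′ Gapdh control probe set, a measure of RNA integrity, was 0.807 and 0.776 in the controls against 0.78 and 0.791 in the silenced clones.

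Glycolysis splits glucose into pyruvate, and proliferating cells often reduce the pyruvate to lactate even when oxygen is present. HIF is a transcription factor whose alpha subunit is hydroxylated by the Egln prolyl hydroxylases and then degraded through Vhl while oxygen is plentiful. When oxygen falls the subunit persists and binds core letters such as ACGTG in promoters and enhancers. It then raises glucose transporters, most glycolytic enzymes, Vegfa and many other genes. The same core lies inside the E-box CACGTG, the site read by Myc, which drives many of the same enzymes in tumour cells.

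The promoter windows of the 6 members with the clearest lower signals in both AID-silenced clones are shown to place the core letters beside the values. Each is 300 bases long, from 250 before to 50 after the annotated start, from RefSeq on build GRCm38.p6, printed 5′ to 3′ along the gene's strand. Capitals mark ACGTG or its reverse complement CACGT, and a run of CACGTG is both at once. The windows are chr8:45999801-46000100 for Ankrd37 (minus strand), chr10:59951721-59952020 for Ddit4 (minus), chr6:82774405-82774704 for Hk2 (minus), chr7:46845554-46845853 for the upstream start of Ldha (plus), chr10:78009758-78010057 for Pfkl (minus) and chr11:5803747-5804046 for Pgam2 (minus).
Ankrd37: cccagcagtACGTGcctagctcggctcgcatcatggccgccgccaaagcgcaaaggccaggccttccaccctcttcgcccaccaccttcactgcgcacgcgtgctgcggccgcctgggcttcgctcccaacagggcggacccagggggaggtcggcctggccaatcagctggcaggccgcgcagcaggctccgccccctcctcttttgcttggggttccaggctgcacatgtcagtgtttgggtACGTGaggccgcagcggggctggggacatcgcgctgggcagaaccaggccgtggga
Ddit4: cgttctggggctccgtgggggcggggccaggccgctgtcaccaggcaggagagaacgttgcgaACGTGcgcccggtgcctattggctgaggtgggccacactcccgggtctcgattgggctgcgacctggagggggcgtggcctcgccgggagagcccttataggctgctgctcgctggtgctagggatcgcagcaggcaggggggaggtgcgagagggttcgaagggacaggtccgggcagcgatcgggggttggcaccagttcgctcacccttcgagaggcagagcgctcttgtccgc
Hk2: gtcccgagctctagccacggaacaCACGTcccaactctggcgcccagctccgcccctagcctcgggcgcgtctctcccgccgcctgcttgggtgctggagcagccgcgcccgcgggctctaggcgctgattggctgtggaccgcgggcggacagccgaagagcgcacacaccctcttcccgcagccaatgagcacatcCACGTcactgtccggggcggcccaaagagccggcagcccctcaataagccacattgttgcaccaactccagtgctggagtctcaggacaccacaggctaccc
Ldha: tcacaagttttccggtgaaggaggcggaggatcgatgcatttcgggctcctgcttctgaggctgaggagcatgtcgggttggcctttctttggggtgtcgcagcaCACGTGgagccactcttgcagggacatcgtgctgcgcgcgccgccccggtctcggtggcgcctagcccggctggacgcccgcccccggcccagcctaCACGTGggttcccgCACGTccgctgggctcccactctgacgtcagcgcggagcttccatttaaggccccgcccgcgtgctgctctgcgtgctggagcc
Pfkl: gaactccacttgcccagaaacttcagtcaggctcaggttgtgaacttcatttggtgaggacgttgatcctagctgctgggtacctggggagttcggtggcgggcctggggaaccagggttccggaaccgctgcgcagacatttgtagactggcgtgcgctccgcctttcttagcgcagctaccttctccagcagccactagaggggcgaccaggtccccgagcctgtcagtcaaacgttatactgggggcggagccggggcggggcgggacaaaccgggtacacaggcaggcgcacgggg
Pgam2: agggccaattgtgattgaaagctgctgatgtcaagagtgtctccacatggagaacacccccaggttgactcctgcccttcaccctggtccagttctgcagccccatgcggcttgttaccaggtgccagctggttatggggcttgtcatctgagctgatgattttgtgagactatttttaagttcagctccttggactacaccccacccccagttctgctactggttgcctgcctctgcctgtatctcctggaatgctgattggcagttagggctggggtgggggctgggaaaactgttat

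Ankrd37 held 2 matches to the core, 241 and 6 bases before the start (position −241 and −6), Hk2 held 2, at −226 and −52, and Ddit4 held 1, at −187. The Ldha window held 5 matches, 4 of them from 2 E-boxes, and its second annotated window, downstream, held none. Neither Pfkl nor Pgam2 held ACGTG or its reverse complement in these bases. Only these letters were searched, here and in the shares that follow, and other forms of the HIF site were not. Windows were found for 36 of the 38 listed genes, without Slc2a3 and Ndrg1, and 24 of the 36 had the core in at least 1 window, a share of 66.7%, against 30.3% of the 8544 tested genes with a window and 21.8% of all 27025 genes with a window, counted in the same way. For the E-box the shares were 13.9% of the members, 12.2% of the tested genes and 8.09% of all genes. By direction, the core was present in 9 of 14 members that were lower in both AID-silenced clones and in 10 of 14 that were not. These are counts of letters in short windows, the base composition of the windows was not matched, and no binding was measured.

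The comparison asked which glycolytic and hypoxia genes differ where AID is silenced. Probe sets at or above the median of all probe sets in mean log2 value entered the test, and 30 of the 36 measured members did. A gene was counted as lower when its signal was lower in the AID-silenced than in the control clone of both pairs. By that count 14 of the 30 were lower, 4 were higher and 12 went opposite ways in the 2 pairs, whereas among all 10475 tested genes 27.5% were lower, 26.7% higher and 45.8% opposite. The median difference over the members was −0.10 log2 units in pair 1 and −0.19 in pair 2, beside 0.00 and −0.01 over all tested genes. In 8 of the 30 both AID-silenced signals lay below both control signals (14.4% of all tested genes), and in 3 both lay above (14.3%).

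None of the 30 members passed limma at an adjusted p of 0.05. Adjusted over all 22519 probe sets, the p of the 30 members ran from 0.784 to 0.9996, and the test called 2 of the 22519 probe sets (0.00888%), or 8 when the pair number was a block, in which case adjusted p of the members ran from 0.30 to 0.987. An unadjusted p under 0.05 was reached by 4 members, Ankrd37, Pgam2, Ddit4 and Hk2, beside 3.89% of all tested genes. The same 4 genes were at least 1.5-fold lower in both pairs, as were 1.58% of all tested genes, and no member was at least 1.5-fold higher in both (2.27%). Standard errors are limma's moderated ones, in which a probe set's spread between clones is drawn toward that of probe sets of like brightness. Their median over the 30 members was 0.27 log2 units. The mean difference of 25 members was under 0.5 in size, and after adjustment none of the 30 could be told from the spread so estimated.

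**Figure D1:**
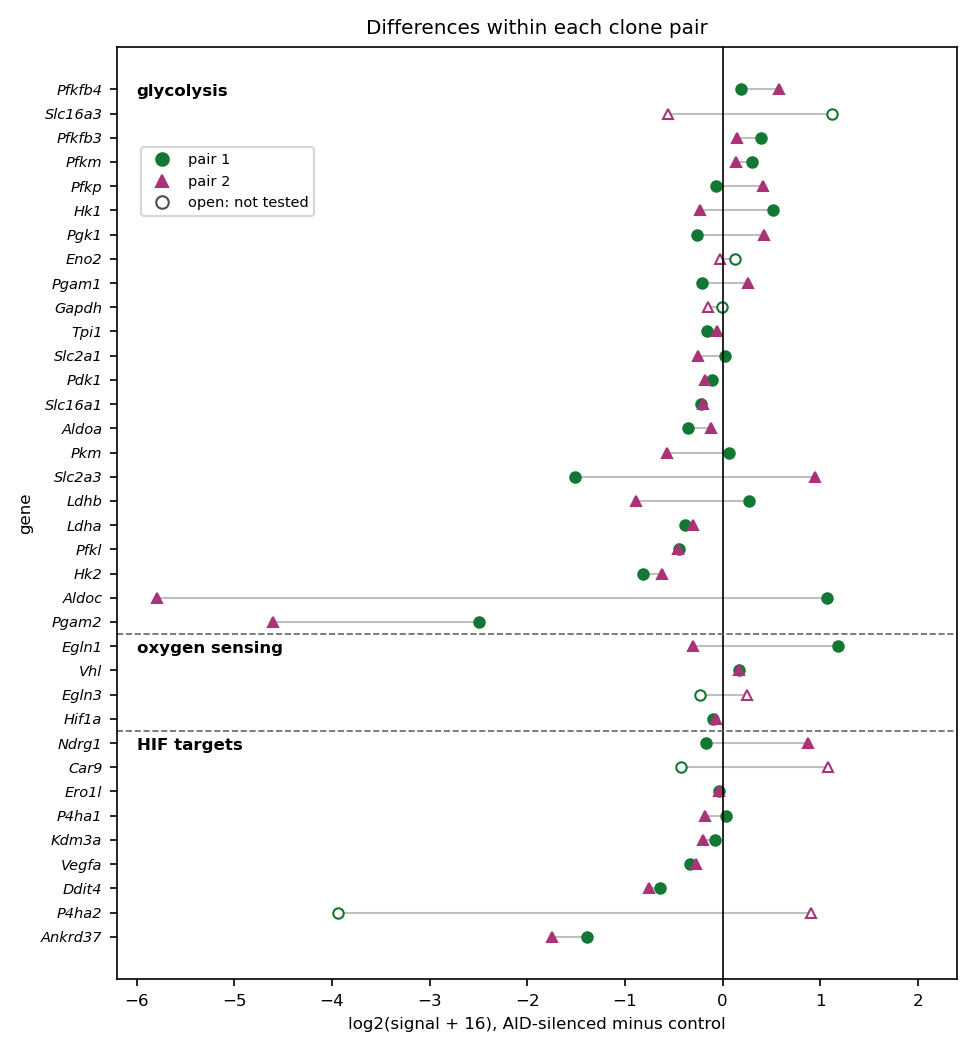
Difference of the AID-silenced from the control clone, in log2(signal + 16), for the 36 measured members in order of their mean within each role group. Circles are pair 1, triangles pair 2, and open symbols mark genes that were not tested. Pgam2 and Ankrd37 lie far to the left in both pairs, while Aldoc, Slc2a3 and P4ha2 have their 2 pairs far apart on either side of 0.

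**Figure D2:**
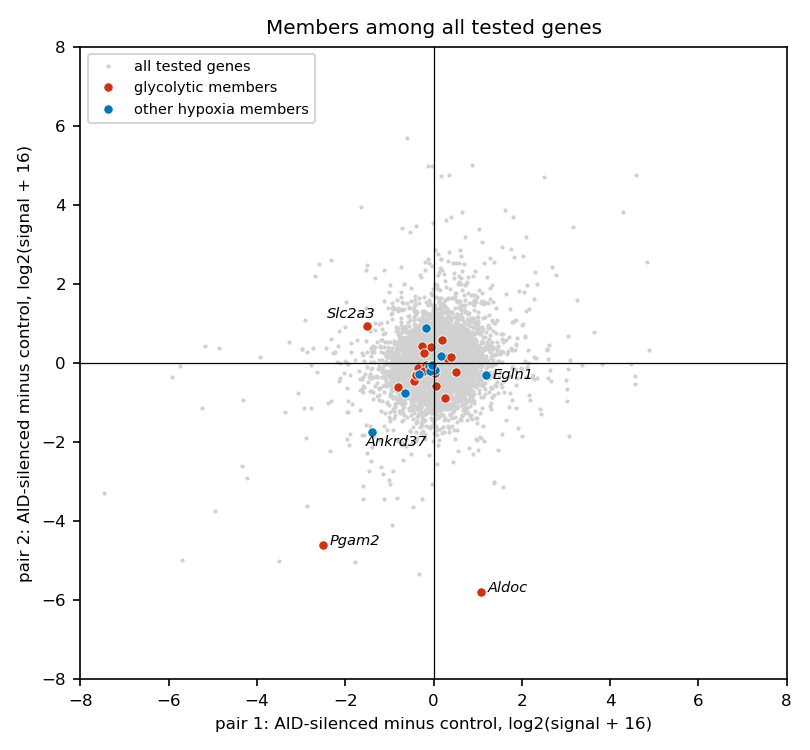
Differences in pair 1 (horizontal) and pair 2 (vertical), in log2(signal + 16), for all 10475 tested genes in grey, 20 glycolytic members in red and 10 other hypoxia members in blue. Most members lie within the grey cloud around 0, with Ankrd37 and Pgam2 in the lower left quadrant and Aldoc at the bottom.

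Among the glycolytic members 8 of 20 tested were lower in both AID-silenced clones, 3 were higher and 9 were opposite (27.5%, 26.7% and 45.8% of all tested genes). Their median difference was −0.14 in pair 1 and −0.19 in pair 2. The lower ones came from several steps of the pathway, namely Hk2, Pfkl, Aldoa, Tpi1, Pgam2, Ldha, Pdk1 and Slc16a1, and the higher ones were Pfkm, Pfkfb3 and Pfkfb4.

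Glucose enters cells through the facilitated transporters Glut1 and Glut3, encoded by Slc2a1 and Slc2a3. Slc2a1 gave signals of 893.5 (pair 1) and 1412 (pair 2) in the controls, against 908 and 1182 in the silenced clones. The groups overlapped, and the clones of pair 2 were the brighter in both groups. Slc2a3 gave 265 and 13.2 in the controls against 82.5 and 40.2 in the silenced clones, so that it was lower in pair 1 by 1.51 log2 units and higher in pair 2 by 0.94. Its control signal in pair 2 was below the bacterial controls, and 1 of its 3 dimmer probe sets, none of which was tested, was lower in both pairs.

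Hexokinase traps glucose as glucose 6-phosphate, and Hk2 is its inducible, HIF-responsive form. Hk2 gave 1857 and 2314 in the controls against 1051 and 1504.5 in the silenced clones. Both AID-silenced clones lay below both control clones, with differences of −0.81 and −0.62 (mean log2 difference −0.71 ± 0.27, standard error, 2 clones a group, adjusted p = 0.9996 by limma). Without the silenced clone of pair 1 the mean was −0.46. Hk1, the constitutive form, had 368 and 525 against 531 and 443, a difference of 0.51 in pair 1 and −0.23 in pair 2.

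Phosphofructokinase makes the committed step, and its 3 subunit genes had different directions. Pfkl, the liver-type subunit, gave 1759.6 and 1930.5 in the controls against 1283 and 1398 in the silenced clones. Its differences were almost the same in the 2 pairs, −0.45 and −0.46 (mean log2 difference −0.46 ± 0.22, standard error, 2 clones a group, adjusted p = 0.9996 by limma). A second probe set for Pfkl was lower as well, by 0.55 and 0.09, but the third, much dimmer, was higher, by 0.52 and 0.51, and the mean over the 3 probe sets differed by −0.0856. Pfkm, the muscle-type subunit, gave 1906 and 2316 in the controls against 2356 and 2546 in the silenced clones, without overlap and with differences of 0.30 and 0.14. Pfkp, the platelet-type subunit, differed more between the pairs, with 10932 and 5638.5 against 10456 and 7534.

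Pfkfb3 and Pfkfb4 set the level of fructose 2,6-bisphosphate, which activates phosphofructokinase. Pfkfb4 gave 250.2 and 194 in the controls against 288 and 297 in the silenced clones, again without overlap, at differences of 0.19 and 0.58. Pfkfb3 had 519 and 300.1 against 685 and 334, and its second probe set was at 0.40 in pair 1 and −0.70 in pair 2. Pfkm, Pfkfb3 and Pfkfb4 did not pass limma, each at an adjusted p of 0.9996.

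Aldolase and triose phosphate isomerase yield the triose phosphates. Aldoa, the main aldolase of most cells, was lower by 0.36 and 0.12 at its brightest probe set, from 17566 and 21838 to 13691 and 20102. Of its 5 probe sets, 3 were lower in both pairs and 2 were opposite, and all 5 carry the suffix by which Affymetrix marks probes that may cross-hybridise with other transcripts. Tpi1 was lower by 0.16 and 0.06, from 7115 and 9738 to 6365 and 9337, and 2 of its 3 probe sets had that direction. In both genes the pair 2 clones were brighter than the pair 1 clones, and the groups overlapped.

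Aldoc, the aldolase best known from brain and also a HIF target, had a signal of 961 in the control clone of pair 2 and of 11.9, 42.5 and 1.7 in the control clone of pair 1 and the AID-silenced clones of pairs 1 and 2. A signal far above background was thus seen on 1 array only. The differences were 1.07 and −5.79, and their mean depends on the pseudocount because 2 of the signals were below the bacterial controls. A second probe set, too dim to be tested, had its highest signal on the same array, at 33.6 against 5.6, 8.1 and 6.6, which is below that array's bacterial maximum of 38.8. The other signals lay below 49.4, the mean signal at the filter, so that array alone brought Aldoc into the test. Without the control clone of pair 1 the mean log2 difference was −4.92, with that 1 bright array as the only control. On all arrays Aldoc did not pass limma, at an adjusted p of 0.9996.

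In lower glycolysis no direction was common to the bright enzymes. Gapdh could be read only from Affymetrix's own Gapdh control probe sets, which were not tested, and the brightest gave 33428 and 40814 in the controls against 33305 and 36758 in the silenced clones. Pgk1, the first ATP-yielding enzyme, had 25593 and 20740 against 21370 and 27904, at −0.26 and 0.43, and its other 2 probe sets were also opposite. Pgam1, the mutase of most tissues, was at −0.21 and 0.26. Pkm, pyruvate kinase, had 16246 and 29144 against 17004 and 19606, so that the control clone of pair 2 stood above the other three arrays. Eno2, the neuronal enolase, was below the bacterial controls on every array.

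The mutase of muscle, Pgam2, stood apart and had the largest mean difference of the 30 tested members. Its signals were 1283 and 14118 in the controls against 214 and 564 in the silenced clones. Both AID-silenced clones lay below both control clones, but the control clones differed from each other by more than the AID-silenced clone of pair 1 differed from its own control. The differences were −2.50 and −4.61 (mean log2 difference −3.55 ± 1.13, standard error, 2 clones a group, adjusted p = 0.9996 by limma). With the pair 1 control left out, limma called Pgam2 at an adjusted p of 0.00354, and in no other setting, so that call rests on comparing the AID-silenced clones with the bright control clone of pair 2. With the pair 2 control left out instead, the mean difference was −1.83 at an adjusted p of 0.583. Of 6 muscle markers, Myh4, Acta1 and Mb were below the bacterial controls on all arrays, and Ckm and Tnnt3 were above them on all arrays. The 6 signals summed to 206 and 252 in the controls against 360 and 299 in the silenced clones, and Ckm and Tnnt3 made up most of each sum. Ckm gave 74 and 73.4 in the controls against 98.6 and 98.9 in the silenced clones, and Tnnt3 gave 72 and 148.1 against 159 and 105.7. Of the 6 markers 5 were higher in both pairs and 0 lower, with those below background included. The part of muscle transcripts in the Pgam2 values was not tested. Pgam2 has 1 probe set on the array, so its level has no second reading.

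Pyruvate is reduced to lactate by Ldha, kept from oxidation through the kinase Pdk1, and exported as lactate by Slc16a1 and Slc16a3. Ldha gave 20795 and 25372 in the controls against 15869 and 20572 in the silenced clones. The groups did not overlap, and the differences were −0.39 and −0.30 (mean log2 difference −0.35 ± 0.21, standard error, 2 clones a group, adjusted p = 0.9996 by limma). The mean for Ldha was −0.16 without the silenced clone of pair 1, −0.20 without the control of pair 2 and −0.53 without the silenced clone of pair 2. Slc16a1, the lactate transporter MCT1, was lower by 0.22 and 0.20, from 5201 and 7447 to 4469.8 and 6462, with overlapping groups. Pdk1 was lower by 0.11 and 0.18 at its brightest probe set, from 679 and 656 to 628 and 578, but 2 of its other 3 tested probe sets were higher in both pairs and 1 was opposite, so the array gives no single direction for it. Ldhb, the subunit that favours lactate oxidation, was at 0.27 and −0.88. Slc16a3, the HIF-responsive transporter MCT4, was too dim to be tested, at 37.6 and 14.4 in the controls against 100.6 and 4.7 in the silenced clones.

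**Figure D3:**
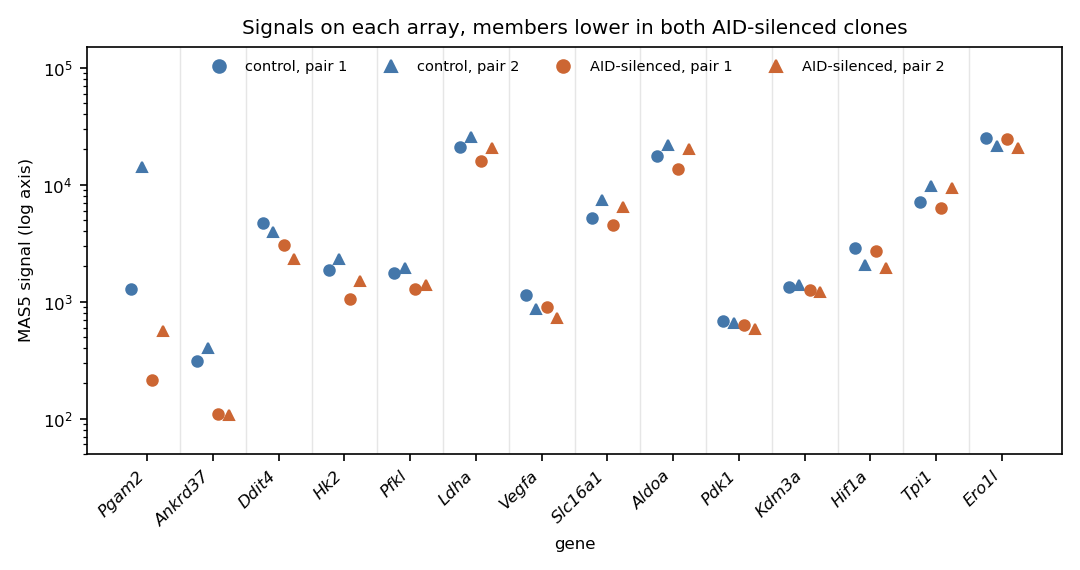
MAS5 signal on each array (log axis) for the 14 tested members that were lower in both AID-silenced clones, in order of the smaller of their 2 differences. Blue is control, orange AID-silenced, circles pair 1 and triangles pair 2. Pgam2, Ankrd37, Ddit4, Hk2, Pfkl, Ldha, Pdk1 and Kdm3a show both orange symbols below both blue ones. The 2 control clones of Pgam2 are far apart, at 1283 and 14118.

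Among the oxygen sensors no common direction was seen. Hif1a, the oxygen-regulated subunit of HIF, was lower in both pairs at all 3 of its tested probe sets. The brightest gave 2875 and 2035 in the controls against 2688 and 1947 in the silenced clones, at differences of −0.10 and −0.06, and the other 2 gave −0.24 and −0.35, and −0.39 and −0.32. Vhl, the recognition subunit of the ligase that marks HIF for degradation, had 506 and 476 against 571 and 538 and was higher by 0.17 in both pairs without overlap, although a second probe set was at −0.04 and 0.37. Egln1, the main oxygen-sensing hydroxylase, had 272 in the control clone of pair 1 and 629, 637.5 and 508 on the control array of pair 2 and the AID-silenced arrays of pairs 1 and 2. That 1 low array gave a difference of 1.18 in pair 1, against −0.30 in pair 2, and the second probe set for Egln1 gave 1.25 and −0.14. Egln3, itself a HIF target, was below the bacterial controls on all arrays.

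Of the HIF targets outside glycolysis, 5 of 7 tested were lower in both AID-silenced clones, none was higher in both and 2 were opposite. Among all tested genes the shares were 27.5%, 26.7% and 45.8%. Ankrd37, a small ankyrin repeat protein whose gene is induced by HIF, gave 309.9 and 398 in the controls against 109 and 107 in the silenced clones. The groups did not overlap, and the clones within each were closer to each other than to the other group. The gene was 2.61-fold lower in pair 1 and 3.36-fold lower in pair 2 on the log2(signal + 16) scale (mean log2 difference −1.57 ± 0.31, standard error, 2 clones a group, adjusted p = 0.784 by limma). Ankrd37 also has a single probe set.

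Ddit4, which restrains mTORC1 under hypoxia and other stresses, gave 4738 and 3897 in the controls against 3028 and 2308 in the silenced clones. Again both AID-silenced clones lay below both control clones, and the differences were −0.64 and −0.75 (mean log2 difference −0.70 ± 0.24, standard error, 2 clones a group, adjusted p = 0.9996 by limma). Vegfa, the angiogenic growth factor, had 1134 and 872 against 898 and 718.5, lower by 0.33 and 0.27 but with overlap, because its signal was higher in pair 1 than in pair 2 in both groups. The second probe set for Vegfa was also lower in both pairs, by 0.26 and 0.02. Kdm3a, a histone H3 lysine demethylase, was lower by 0.07 and 0.20 without overlap, from 1335 and 1382 to 1267 and 1201.

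For the remaining HIF targets the differences were small or opposite in the pairs. Ero1l, an oxidase of the endoplasmic reticulum that is highly active in secretory cells, was bright, at 24993 and 21176 in the controls against 24419 and 20602 in the silenced clones. Its differences were −0.03 and −0.04, and its other 2 probe sets were opposite in the pairs. P4ha1, a catalytic subunit of collagen prolyl 4-hydroxylase, was at 0.03 and −0.18. Ndrg1, a stress-induced cytoplasmic protein, was dim, at 98 and 23.6 against 85 and 56.6. P4ha2, the second collagen hydroxylase subunit, had 346 in the control clone of pair 1 and 5.4, 7.6 and 24 elsewhere and was not tested. Car9, a membrane carbonic anhydrase widely used as a hypoxia marker, did not exceed the bacterial controls on any array.

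Several genes have more than 1 probe set, and these give further readings under the same gene symbol, though not necessarily of the same transcript. Of 15 members with several tested probe sets, 6 fell in the same class (lower, higher or opposite) at all of them. Hif1a and Vegfa were lower in both pairs at each tested probe set. Pfkp, Pgk1, Egln1 and P4ha1 went opposite ways in the pairs at each, so they share no direction. Counted by probe set, 22 of 57 were lower in both pairs, 8 were higher and 27 were opposite, beside 26.0%, 27.8% and 46.2% of all 22519 tested probe sets, and the 57 repeat the same 30 genes.

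**Figure D4:**
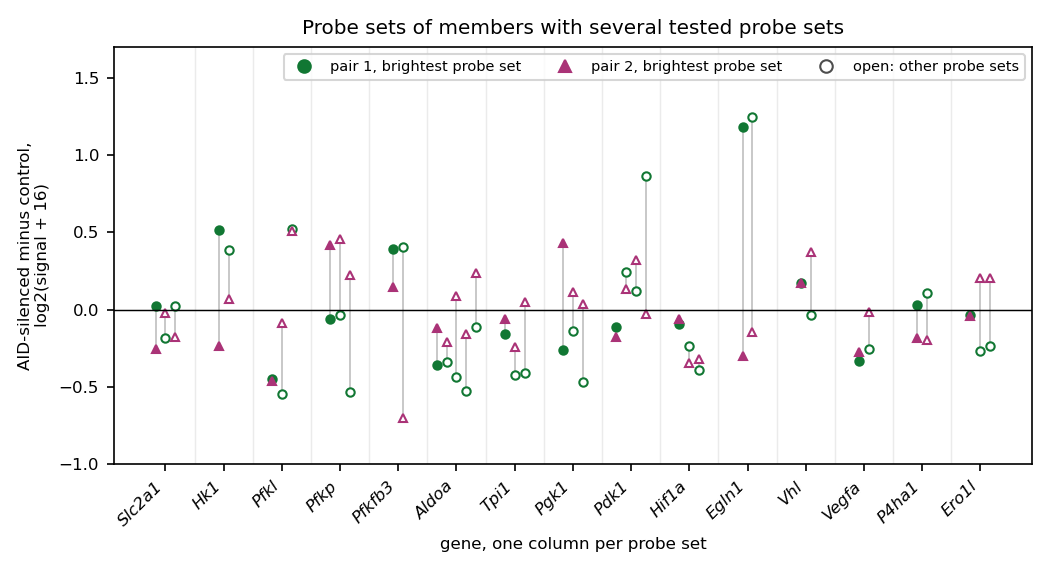
Differences of the AID-silenced from the control clone, in log2(signal + 16), for each tested probe set of the 15 members with several. Filled symbols are the brightest probe set, open symbols the others, circles pair 1 and triangles pair 2. The probe sets of Hif1a lie together below 0 and those of Egln1 repeat each other, whereas those of Pfkl and Pdk1 lie on both sides of 0.

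The pairs differed from each other as well. In 14 of the 30 tested members the mean difference of pair 2 from pair 1 was larger than the mean difference of AID-silenced from control clones, as it was in 60.4% of all tested genes. Pfkfb3 was lower in pair 2 in both groups, by 0.76 in the control and 1.00 in the AID-silenced clones, and Hif1a by 0.50 and 0.46. Slc16a1 was higher in pair 2, by 0.52 and 0.53, and so was Tpi1, by 0.45 and 0.55. Such values show how far the 2 clones of one kind lay apart for these genes, with the same sign in both groups. The labels do not say what a pair shares. A shift common to the clones of a pair therefore cannot be told apart from differences between single clones.

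Further genes around the same pathways were then counted. Their lists, like that of the members, were chosen with earlier results of these data known, so the counts are not an independent repeat. Of other hypoxia genes 12 of 24 tested were lower in both AID-silenced clones and 4 were higher, beside 27.5% and 26.7% of all tested genes. Their medians were −0.09 and −0.20, and none of the 24 passed limma (adjusted p = 0.9996). Slc7a11, the cystine importer, gave 1035 and 784 in the controls against 555 and 426.5 in the silenced clones. Hmox1, heme oxygenase 1, had 1167 and 1073 against 736 and 759. Both genes showed no overlap between the groups, at mean differences of −0.87 and −0.57, and both are also known as targets of other stress pathways. Tfrc, the transferrin receptor, was lower by 0.37 and 0.39, with clones of pair 2 far brighter than those of pair 1 in both groups. Hilpda, a lipid droplet protein induced by HIF, was lower by 0.52 and 0.29. In the other direction, the HIF targets Higd1a and Fam162a, both mitochondrial proteins, were higher without overlap, by 0.47 and 0.28 and by 0.21 and 0.30; both were chosen after their values were seen.

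Of the remaining isoenzymes and glycogen genes 4 of 13 tested were lower in both AID-silenced clones and 3 were higher, close to the background shares. Bpgm, which makes 2,3-bisphosphoglycerate, had 674 and 609 against 840.5 and 868, at differences of 0.31 and 0.50. Gys1, muscle glycogen synthase, was at −0.39 and −0.23, Gbe1, the glycogen branching enzyme, at −0.26 and −0.22, and Pygb, brain glycogen phosphorylase, at 0.16 and 0.20. In pyruvate oxidation and the pentose phosphate pathway 7 of 17 were lower and 5 were higher, beside 27.5% and 26.7% of all tested genes. Pdk3, a HIF-responsive pyruvate dehydrogenase kinase, had 2437 and 1457 against 1351 and 1053, lower by 0.84 and 0.46, while Pdk2 was higher by 0.41 and 0.51. Dlat, a core subunit of pyruvate dehydrogenase, was lower by 0.34 and 0.59, and Pgd, of the oxidative pentose pathway, by 0.36 and 0.30. None of these passed limma either, each at an adjusted p of 0.9996.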

How the data were processed

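The authors deposited 1 table of array intensities, 1 value per probe set and array on a linear scale. MAS5 is the tool named, per the submitters' processing notes; its version and any further steps are not given in the sources used here. Each array had a 2% trimmed mean of 500, and no further normalisation was applied. Dim MAS5 signals vary strongly, so log2(signal + 16) was used, which understates the differences of dim genes. Affymetrix's 64 control probe sets were left out of the test, and of the rest the 22519 at or above the median (a mean signal of about 49.4) entered it.

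The platform annotation gave 34958 of the 45101 probe sets a single symbol, 932 several and 9211 none, and 34754 were matched to the reference gene table of GRCm38.p6. Ero1l is listed there as Ero1a. Genes on probe sets with several symbols were not named, and 10475 of 18193 genes outside the controls were tested.

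The comparison of the groups ran in R 4.3.3 on the 4 arrays together. It used limma 3.58.1 (lmFit, then eBayes with trend and robust set, through statmod 1.5.0), with Benjamini-Hochberg adjustment over all tested probe sets. The labels do not say whether clones were separate cultures beyond being separate clones, so the results describe these 4 samples. Standard errors and p-values rest on limma's moderated variance. It draws the spread of a probe set between clones toward the trend over all tested probe sets. A printed standard error is therefore not the spread of that gene's own clones alone. The labels number the pairs without saying what a pair shares. Pair 2 minus pair 1 was related in the 2 groups (over the tested probe sets, Pearson r = 0.306 and Spearman rho = 0.336, genes not being independent replicates), and the pair entered as a block in an alternative. Lists were described by counts and medians beside all tested genes.

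The members and lists were chosen with earlier results of these data known. Every member could be named, with all arrays given for those of one direction in both pairs and for opposite ones at least 2-fold apart in either pair, and up to 4 further genes per list by the smaller of their differences. Data simulated with known changes served to test the limma code. Alternatives were pseudocounts of 1 and 64, quantile normalisation, median centring, no or a stricter filter, leaving out each clone, the pair as a block, the mean of a gene's probe sets and, chosen after seeing the data, probe sets not marked for cross-hybridisation. The level of the silenced gene was not analysed here, so the labels were not checked by it. Figures were drawn with matplotlib 3.10.9.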

Additional observations from a re-analysis of the deposited data

Results flagged for a closer look

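Aldoc went opposite ways in the 2 clone pairs by at least 2-fold, and was the one tested member to do so. The AID-silenced clone was higher than its control by 1.07 log2 units in pair 1 and differed by −5.79 in pair 2. In pair 1 the control signal was 11.9, below that array's bacterial maximum of 41.9. The silenced clone gave 42.5, where the maximum was 27.3. The sizes of the differences therefore depend on the pseudocount. The difference between the pairs was not tested, since each pair holds 1 clone of each kind. Groups of 2 clones were too small to be screened for outlying samples.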

How the results depend on the processing

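The number of glycolytic members lower in both AID-silenced clones was 8 in every setting, with 16 to 22 tested, and that of the other hypoxia members was 5 or 6, with 8 to 13 tested. These counts need both pairs, so no clone could be left out. A pseudocount cannot change the sign of a difference within a pair, and a filter leaves the values as they are. Those settings could alter the counts only through which genes were tested. With the mean of probe sets the glycolytic count was equal but its members were not, since Pdk1 turned positive there. Over all genes, 2 probe sets were called under both other pseudocounts, both scalings and both other filters, 8 with the pair number as a block, and between 0 and 146 when 1 clone was left out (0 without the AID-silenced clone of pair 1, with 589 at an unadjusted p under 0.05, and 146 without the control clone of pair 1). Leaving out a clone assumes that the lone clone of its group varies like the others. No tested member passed with the block (adjusted p 0.30 to 0.987). Without the control clone of pair 1, Aldoc and Pgam2 had log2 fold changes of −4.92 and −5.27. The bright control clone of pair 2 was then the only control. Some members with 1 direction in both pairs changed sign when 1 clone was left out. Pfkfb3 ran from −0.23 to 0.77, Aldoa from −0.52 to 0.0375 and Tpi1 from −0.39 to 0.17. Slc16a1 ran from −0.48 to 0.0542, Hif1a from −0.33 to 0.17 and Ero1l from −0.16 to 0.0859. Fits without 1 clone did not use the pair, so part of the difference between the pairs enters their values. A change of sign there is thus not a change of direction within a pair. Pdk1 turned to 0.17 with the mean of its probe sets, in which its other probe sets outweigh the brightest. Ankrd37 stayed between −1.74 and −1.27, Ddit4 between −0.89 and −0.50 and Hk2 between −0.97 and −0.46 over all settings run, whereas Ldha ran from −0.53 to −0.16, Pfkl from −0.52 to −0.0856 (the mean of its probe sets) and Pgam2 from −5.27 to −1.83. For dim genes such as Aldoc and Slc2a3 the signal over background limits the size of any difference.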

Other observations

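Proliferation markers, read beside the metabolic genes, showed no common direction. Mki67 gave 10204 and 13054 in the controls against 13561 and 15391 in the silenced clones, and Mcm2, a subunit of the replicative helicase, had 5203 and 4255 against 3981 and 3443. In both pairs 2 of the 5 measured markers lay higher in the silenced clones and 3 lay lower, and their summed signals were 44380 and 52655 against 44192 and 54129.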
